A study of Mus musculus with 8 samples.

Results

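Glycogen metabolism in the liver was followed through 9 genes that prime, build, branch and break down glycogen or set the activity of the enzymes that do so, namely Gyg, Ugp2, Gys2, Gbe1, Pygl, Phkg2, Gsk3b, Ppp1r3b and Ppp1r3c. Every probe listed under these gene names was taken and kept separate, which gave 15 of the 55681 probes of the array besides the controls (9 of 34836 gene names). Gene expression had been measured with 1-colour Agilent arrays in the liver of 4 male mice of the obese strain NZO (NZO/HiBomDife) and of 4 male mice of the lean strain B6 (C57BL/6), with 1 array per mouse. All mice were 6 weeks old and had received a high fat diet with 45% fat, and the labels of the groups differ only in the strain. The feeding state before sampling is not given in the sources used here.

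Glycogen is the branched glucose polymer in which hepatocytes store glucose after a meal and from which they release it during fasting. A new particle starts on glycogenin, grows when glycogen synthase adds glucose from UDP-glucose, and is branched by the branching enzyme, while liver phosphorylase removes glucose from the outer chains. The balance of synthase and phosphorylase is set to a large part by phosphorylation and by metabolites, which a transcript array does not measure.

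None of the 15 probes differed between NZO and B6 after adjustment over all probes tested. A probe was tested when every array of NZO, of B6 or of both showed it well above background, which held for 27639 probes. Levels are given as log2 of the processed signal minus the 75th percentile of the array, and differences are NZO minus B6 on this log2 scale. A probe was called at an adjusted p of at most 0.05 (limma, Benjamini-Hochberg). Across the array, 6.83% of the probes tested were called higher and 7.43% lower in NZO, against 0 of 15 glycogen probes in either direction. At an unadjusted limma p of at most 0.05, 4 of 15 glycogen probes passed, which was a share of 26.7% and close to the 27.8% of all probes tested. The methods' t-test passed 4 of 15 unadjusted, where 24.8% of all probes passed, and 0 after adjustment. The methods name a p of at most 0.05 together with a log2 difference of at least 0.7 up or down, and do not say whether this p was adjusted. Read as the unadjusted limma p, 1 of 15 glycogen probes met these thresholds against 12.2% of all probes. With the unadjusted p of the methods' t-test it was 1 of 15 against 10.5%.

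The differences of the glycogen probes were small and most of them were measured tightly. Every one of the 15 probes was above background on all 8 arrays. Of them, 9 had a positive and 6 a negative difference, with a median of 0.03, where the median of all probes tested was 0.02. The size of the difference regardless of its sign had a median of 0.18, against 0.24 for all probes tested. The 95% confidence interval of the difference lay within 0.7 of zero for 13 of 15 glycogen probes (86.7%) and for 53.2% of all probes tested. The exceptions were 1 probe of Gbe1 and the probe of Ppp1r3c. The probes were not matched by level here, and most glycogen probes were brighter than at least 73% of the probes tested. Because whole liver was measured, fewer cells of a type and less RNA per cell cannot be told apart.

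**Figure D1:**
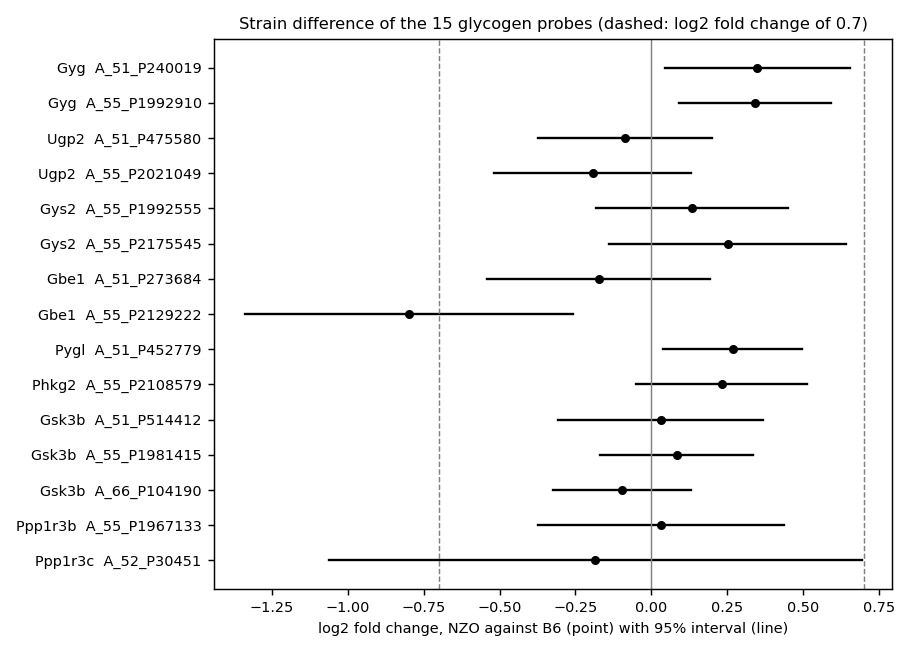
Difference between NZO and B6 liver for each of the 15 glycogen probes, as the log2 fold change (point) with its 95% confidence interval (line) from limma, 4 mice per strain; the dashed lines mark 0.7 in either direction. All intervals lie between the dashed lines but those of Gbe1 A_55_P2129222, centred on -0.80, and of Ppp1r3c, which runs from -1.06 to 0.69.

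The arrays were compared before single genes were read. The 75th percentile of the processed signal, a measure of the brightness of an array, ranged from 119 to 142 in NZO and from 137 to 159 in B6, the share of spots above background was 50.4% to 60.1%, and no array had saturated spots. Scan day 1 held 3 NZO and 2 B6 arrays, and scan day 2 held NZO 007 alone with 2 B6 arrays. Only 1 slide held both strains, with NZO 003 alone beside B6 010 and B6 015, so that a fit with a fixed slide term rests on this 1 NZO mouse. All 5 hepatocyte markers (Alb, Ttr, Apoa1, Cps1 and Tat) were above background on every array and none of them was called by limma. The strains did not overlap at Alb (0.27) and Ttr (0.15), with NZO above B6, and Ttr passed the methods' t-test after adjustment. The NZO 007 array stood apart in its skeletal muscle markers. Their summed level, relative to the 75th percentile of the array on the linear scale, was 18.8 on NZO 007 against 0.21 to 0.40 on the other 3 NZO arrays, and the B6 arrays ranged from 0.42 to 6.18, the highest being B6 010. Myh4, a fast muscle myosin, had the brightest of these probes, 0 of the 3 muscle probes that were tested of 5 were called, and none was at background on all arrays. Without NZO 007, Tnnt3 A_55_P2088375 was called lower (-3.44, limma adjusted p = 0.0235, against -1.65 with all arrays), and Myh4 moved from -1.55 to -3.23 (limma adjusted p = 0.0631). The Tnnt3 probe was well above background on 1 NZO and 4 B6 arrays, with NZO 003, 009 and 011 at -5.22, -6.41 and -6.07. Its -3.44 thus rests on NZO levels near background and is not a measured fold. NZO 007 was also the lowest of the 4 NZO arrays for 9 of 15 glycogen probes and the highest for 0, where it was the lowest for 39.5% of all probes tested. Without NZO 007, 0 of 15 glycogen probes were called, where 3811 of all 27639 probes tested were. In this fit 6 of 15 had an unadjusted limma p of at most 0.05. The share of all probes at this p is not given for this fit, so that the 6 cannot be set against the array. Its leukocyte markers summed to 19.0, against 11.1 to 13.6 on the other 7 arrays, and Cd3e, the brightest probe of the list, made up 12.2 of this. Without Cd3e the sum was 6.71 on NZO 007 and 5.95 to 7.65 on the other arrays, and Ptprc was lowest on NZO 007 (-1.14).

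Markers of other cells differed between the strains and are given here because liver glycogen genes were read in whole tissue. Of 4 red blood cell probes, Hba-a1 (1.01) and Alas2 (0.90) were called higher in NZO, and the list summed to 293 to 470 in NZO and to 155 to 208 in B6, with Hba-a1 as the brightest probe. The other 3 probes summed to between 86.8 and 97.1 in NZO and between 42.7 and 53.4 in B6. The call of Hba-a1 was lost without B6 010 (limma adjusted p = 0.055) and without B6 015 (0.0527). Of 7 adipocyte probes, Car3 (0.47) was called higher, whereas Fabp4 (-0.30) and the 2 probes of Cidec (0.29 and 0.42) were not called, and the defining markers Adipoq, Plin1 and Lep were at background on all 8 arrays. The adipocyte list summed to between 565 and 644 in NZO and between 409 and 481 in B6, nearly all of it from the Car3 probe, and without Car3 to between 3.34 and 4.75 in NZO and between 4.50 and 4.99 in B6. Of 6 leukocyte probes, Itgax (-2.04) and 1 probe of Cd68 (-0.42) were called lower, whereas Lyz2 (0.41) and Cd3e (0.33) had positive values and were not called. Itgax was well above background on 2 NZO and 4 B6 arrays, so that its difference rests in part on NZO levels near background. Without B6 010 neither call held (limma adjusted p = 0.0751 and 0.0784), and of the fits without single mice only those without NZO 007 and NZO 011 called Itgax and only that without NZO 007 called Cd68. In turn, Hbb-b1 was called higher without NZO 011, Ptprc lower without B6 009 and Cela1 lower without B6 015. The 6 exocrine pancreas probes summed to between 1.29 and 2.29 on all arrays, 4 of them were at background on all arrays, and 0 of the other 2 were called. The part of these cells in the values of the glycogen genes was not tested.

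The priming of glycogen was represented by Gyg, glycogenin, the protein on which a new particle starts. Its 2 probes read the transcript NM_013755 on chromosome 3 (mm9 chr3:20022018-20022077 and chr3:20022033-20022092, minus strand) and share 45 of their 60 bases, so that they are close to a repeated measurement of the same place. On the probe A_55_P1992910 the levels were 2.44, 2.53, 2.36 and 2.37 in NZO (007, 003, 009 and 011) and 2.18, 1.87, 2.23 and 2.06 in B6 (011, 010, 015 and 009). All 4 NZO mice lay above all 4 B6 mice, with the nearest pair 2.36 and 2.23. Such a separation in either direction was seen at 22% of all probes tested, and with NZO above B6 at 11.4%. The difference was 0.34 ± 0.11 (SE, n = 4 per strain), a fold of 1.27, with a limma adjusted p of 0.0785 and thus was not called. The other probe, A_51_P240019, gave 0.35 ± 0.13 with a limma adjusted p of 0.128, again without overlap between the strains (NZO 2.14 to 2.46, B6 1.61 to 2.10). The difference on A_55_P1992910 was 0.37 within scan day 1 and 0.31 for NZO 007 alone on day 2. With the deposited table, which is not scaled between arrays, the differences of these probes were 0.069 and 0.095.

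Ugp2 makes UDP-glucose, the donor from which synthase takes glucose. Its 2 probes lie 634 bases apart on chromosome 11 (NM_139297, mm9 chr11:21221281-21221340 and chr11:21221975-21222034, minus strand). On A_55_P2021049 the NZO mice ranged from 5.04 to 5.54 and the B6 mice from 5.33 to 5.64, a difference of -0.19 ± 0.14 (limma adjusted p = 0.42). On A_51_P475580 the NZO mice ranged from 3.16 to 3.62 and enclosed the B6 range of 3.35 to 3.49, with a difference of -0.09 ± 0.12 (limma adjusted p = 0.695). Both probes overlapped between the strains, and both spread more in NZO than in B6 (SD 0.24 against 0.13, and 0.22 against 0.06). Without NZO 007 the differences were -0.10 and -0.024, and without NZO 011 they were -0.26 and -0.18. With the deposited table A_55_P2021049 was called lower (-0.39, limma adjusted p = 0.0465), and A_51_P475580 gave -0.25 without a call.

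Gys2, the liver form of glycogen synthase, carries out the step that commits glucose to storage. Both of its probes read NM_145572 on chromosome 6 (mm9 chr6:142371157-142371216 and chr6:142371915-142371974, minus strand). On A_55_P1992555 the levels were 5.23, 5.79, 5.56 and 5.79 in NZO (007, 003, 009 and 011) and 5.49, 5.41, 5.50 and 5.44 in B6 (011, 010, 015 and 009). The B6 mice lay close together, while NZO 007 was below all of them and the other 3 NZO mice were above. The difference was 0.13 ± 0.14 with a 95% interval from -0.18 to 0.45 (limma adjusted p = 0.576). The other probe, A_55_P2175545, gave 0.25 ± 0.17 with an interval from -0.14 to 0.64 (limma adjusted p = 0.384). Without NZO 007 the differences were 0.25 and 0.39, with limma adjusted p of 0.146 and 0.109. Without NZO 011 or NZO 003 that of A_55_P1992555 was 0.067 or 0.069, and neither probe was called without any single mouse.

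Gbe1, the branching enzyme, was the gene whose probes gave the most different values. Branching makes the particle compact and soluble and multiplies the chain ends at which synthase and phosphorylase act. The probe A_51_P273684 is annotated to the transcript NM_028803 (mm9 chr16:70569840-70569899, plus strand), and A_55_P2129222 to the Ensembl transcript ENSMUST00000099628 (chr16:70361227-70361286, plus strand), 208553 bases upstream. The sequence of the latter is printed because the largest difference among the 15 probes rests on it, with the letters GTAAGT at bases 47 to 52 in capitals.
Gbe1 A_55_P2129222: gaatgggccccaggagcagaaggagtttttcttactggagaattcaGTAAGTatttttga
GTAAGT matches the consensus at the start of introns. It stands on the given strand of 0.959% of the 55681 array probes and on either strand of 2.13% of them. Read in triplets from its first base, the probe holds its first stop triplet at bases 58 to 60. These matches describe letters of the probe, and the exons of the transcript were not analysed here.

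On A_55_P2129222 the levels were -1.06, -0.78, -0.58 and -0.38 in NZO (007, 003, 009 and 011) and -0.46, 0.59, 0.10 and 0.17 in B6 (011, 010, 015 and 009). All NZO mice were below 3 of the 4 B6 mice, and B6 011 lay among the NZO mice. The difference was -0.80 ± 0.24 with a 95% interval from -1.34 to -0.26, a fold of 0.575, with a limma adjusted p of 0.0591 (unadjusted, 0.0091). This was the only glycogen probe past the thresholds of the methods, and it was not called after adjustment. The call depended on the fit: the limma adjusted p was 0.0173 with the scan day as a term (difference -0.92) and 0.0485 with the slide as a random block (-0.83), 0.0210 without B6 011 (-0.99), and 0.129 without B6 010 (-0.64). After the normexp background correction the difference was -0.51 (limma adjusted p = 0.0753) and thus smaller than 0.7. The difference was -0.93 within scan day 1, -0.91 for NZO 007 alone on day 2, and -1.13 for NZO 003 alone on the shared slide.

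The other Gbe1 probe gave a smaller difference. On A_51_P273684 the levels were 4.24, 4.79, 4.63 and 4.68 in NZO and 4.50, 4.92, 4.64 and 4.98 in B6, in the same order of mice. The ranges overlapped, and the difference was -0.17 ± 0.16 (limma adjusted p = 0.53). It was -0.057 without NZO 007 and -0.47 with the deposited table, and was not called in either. Within each array, the log2 ratio of A_55_P2129222 over A_51_P273684 was -5.30, -5.58, -5.21 and -5.06 in NZO and -4.97, -4.33, -4.54 and -4.81 in B6. Every NZO mouse had a lower ratio than every B6 mouse, by -0.63 on average. In a two-sided exact permutation test this had p = 0.0286, the smallest p that 4 against 4 arrays can give, and p = 0.1 after Benjamini-Hochberg adjustment over the 7 pairs of probes compared. With this smallest p, no pair could have passed an adjusted p of 0.05 unless at least 4 of the 7 pairs were without overlap.

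**Figure D2:**
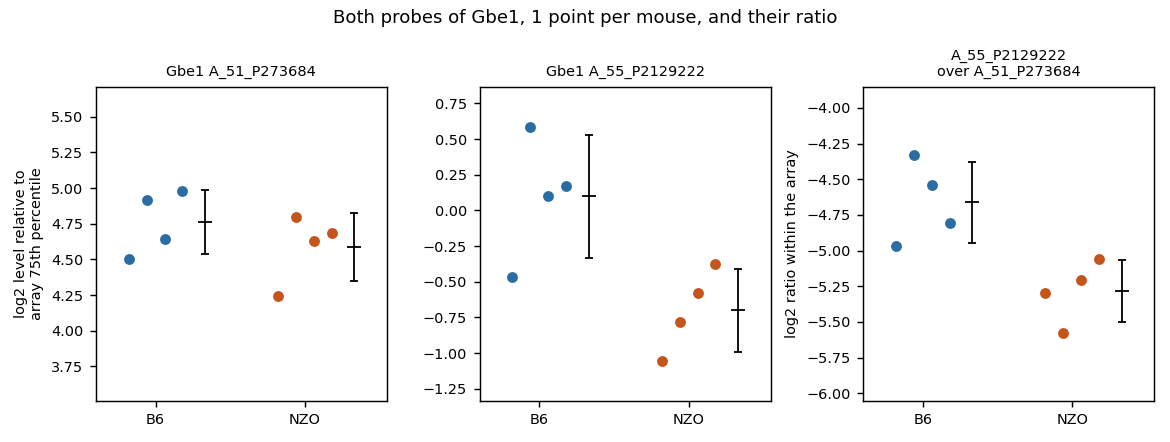
Both Gbe1 probes on each array as log2 level relative to the 75th percentile of the array (left and middle), and the log2 ratio of A_55_P2129222 over A_51_P273684 within the array (right); points are mice, and bars give the mean and SD of 4. Every panel spans 2.2 log2 units, the strains overlap at either probe, and the ratio is at most -5.06 in the NZO mice and at least -4.97 in the B6 mice.

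Pygl, the liver phosphorylase that releases glucose from glycogen, was read by 1 probe (NM_133198, mm9 chr12:71291855-71291914, minus strand). Its level was higher than that of 98.6% of the probes tested, which is given as a rank among probes and not as an amount of RNA. The levels were 7.86, 8.13, 8.00 and 8.14 in NZO (007, 003, 009 and 011) and 7.75, 7.80, 7.66 and 7.83 in B6 (011, 010, 015 and 009). All NZO mice lay above all B6 mice, but NZO 007 exceeded the highest B6 mouse only narrowly. The difference was 0.27 ± 0.10 with an interval from 0.04 to 0.50, a fold of 1.20, with a limma adjusted p of 0.123, and was not called. Without NZO 007 it was 0.33 (limma adjusted p = 0.0663). The difference was 0.36 within scan day 1 and 0.07 for NZO 007 alone on day 2, and with the deposited table it was 0.039.

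Phkg2, the catalytic subunit of the liver form of phosphorylase kinase, activates Pygl by phosphorylation. On its probe (NM_026888, mm9 chr7:134726757-134726816, plus strand) the 4 NZO mice lay between 3.54 and 3.66, whereas the B6 mice ranged from 3.13 to 3.66. The difference was 0.23 ± 0.12 (limma adjusted p = 0.263), and the strains overlapped because B6 011 was as high as the NZO mice. Without B6 010 the difference was 0.15, and over the alternatives with all mice it ranged from 0.0096 to 0.43. The SD was 0.06 in NZO and 0.22 in B6.

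Gsk3b, a kinase that inhibits glycogen synthase and is itself inhibited by insulin signalling, was read by 3 probes of NM_019827 on chromosome 16. The probe A_51_P514412 is placed across 3646 bases (mm9 chr16:38187987-38191632, plus strand) although it has 60, so that its alignment is split over the genome. The others are A_55_P1981415 (chr16:38241177-38241236) and A_66_P104190 (chr16:38246094-38246153). The differences were 0.03 ± 0.15, 0.08 ± 0.11 and -0.10 ± 0.10, the strains overlapped at all 3 probes, and the limma adjusted p were 0.918, 0.668 and 0.57. The log2 ratio of A_66_P104190 over A_55_P1981415 ranged from -3.50 to -3.31 in NZO and from -3.29 to -3.21 in B6, a difference of -0.18 without overlap (exact permutation p = 0.0286, adjusted p = 0.1 over 7 pairs). The other 5 pairs of probes of a gene, among Gyg, Ugp2, Gys2 and Gsk3b, had exact permutation p from 0.257 to 0.914.

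Ppp1r3b and Ppp1r3c are targeting subunits that bring protein phosphatase 1 to glycogen, where it activates synthase and inactivates phosphorylase. Ppp1r3b was read at NM_177741 (mm9 chr8:36451115-36451174, plus strand). Its NZO mice ranged from 7.02 to 7.70 and its B6 mice from 6.93 to 7.41, with a difference of 0.03 ± 0.18 (limma adjusted p = 0.928). The sign of this difference changed under other scalings, with -0.10 after quantile normalization.

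Ppp1r3c varied more between mice of the same strain than any other gene of the 9. Its probe (NM_016854, mm9 chr19:36806457-36806516, minus strand) had levels of 2.90, 2.84, 4.15 and 3.91 in NZO (007, 003, 009 and 011) and 3.50, 4.45, 3.17 and 3.42 in B6 (011, 010, 015 and 009). Of the NZO mice, 2 were below all B6 mice and the other 2 above 3 of the 4, and the highest level of all was that of B6 010. The difference was -0.18 ± 0.38 with an interval from -1.06 to 0.69 (limma adjusted p = 0.794). The SD within the strains was 0.62, which was larger than for 89.5% of the probes tested, whereas that of the other glycogen probes ranged from 0.10 to 0.37. On the linear scale the interval ran from 0.479 to 1.62 fold.

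**Figure D3:**
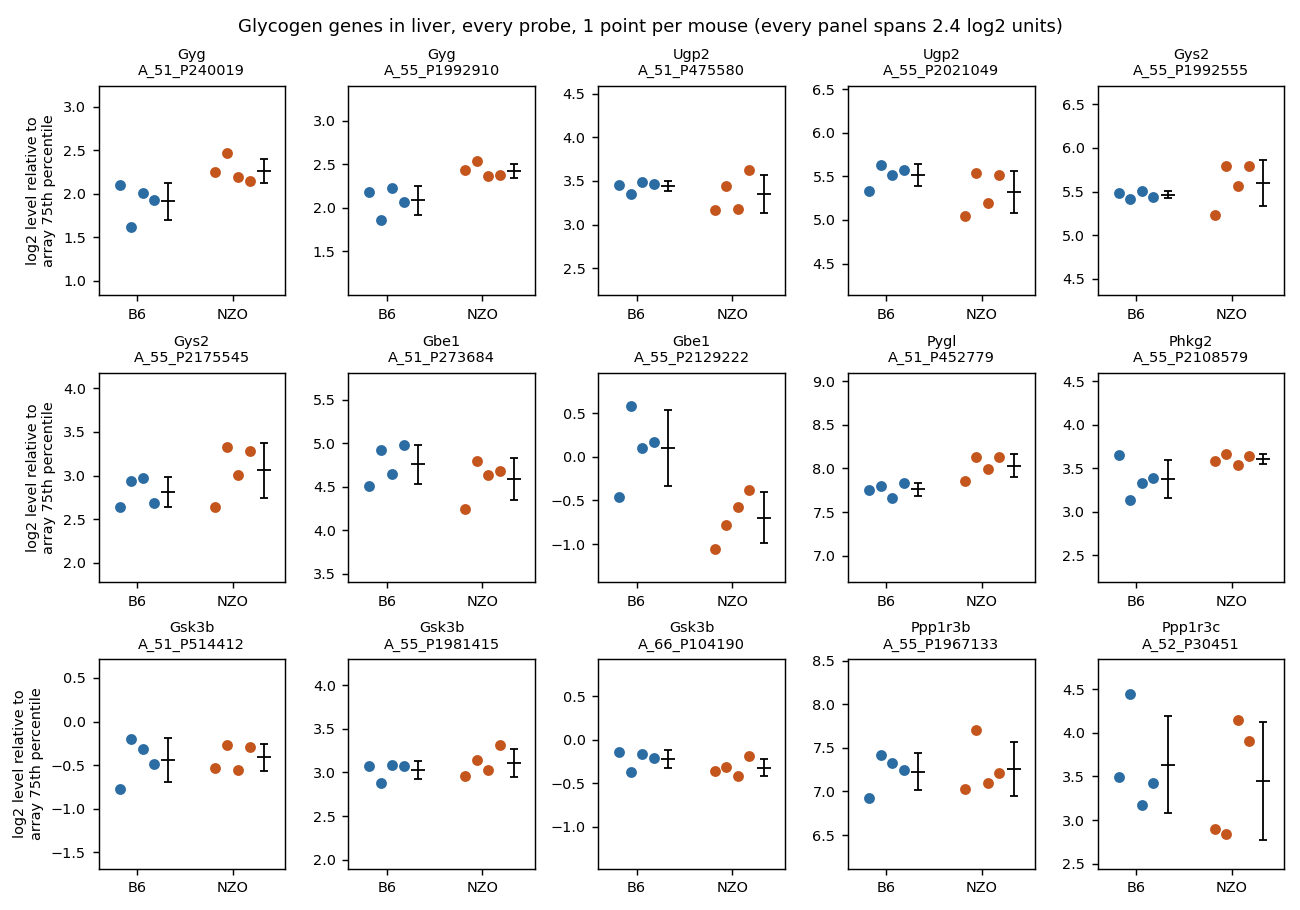
Log2 level of each of the 15 glycogen probes relative to the 75th percentile of its array, with 1 point per mouse in accession order and bars for the mean and SD of 4 mice; every panel spans 2.4 log2 units, and levels of different probes are not comparable. The strains are separate at both Gyg probes and at Pygl, and Ppp1r3c has the widest spread within the strains.

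In total, the strains did not overlap at 3 of 15 glycogen probes, 2 of them being the probes of Gyg that share most of their bases and the third that of Pygl. Across the array, 22% of the probes tested were without overlap. None of the 3 was called.

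The other genes of glycogen metabolism were given by 6 lists with 46 genes and 71 probes, of which 57 probes were tested. Of them 4 were called higher and 1 lower in NZO, against 6.83% and 7.43% of all probes, and 11 (19.3%) had an unadjusted limma p of at most 0.05, beside 27.8% of all probes. The median difference was 0.06, beside 0.02 for all probes tested, and the median size 0.17 beside 0.24.

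The largest difference among them was that of Nhlrc1, malin, a ubiquitin ligase that works with the phosphatase laforin and whose loss leads to poorly branched glycogen deposits. On A_52_P20727 (mm9 chr13:47108005-47108064) the levels were 0.67, 0.91, 0.92 and 0.60 in NZO (007, 003, 009 and 011) and -0.02, -0.49, -0.24 and -0.18 in B6 (011, 010, 015 and 009). All NZO mice were well above all B6 mice, and the difference was 1.00 ± 0.13 (limma adjusted p = 0.00152). With the fixed slide term it was 1.27 and not called. The second probe of Nhlrc1, A_55_P2044847, was dim and gave 0.59 ± 0.18 with overlap (limma adjusted p = 0.066). This probe was called without B6 011 (0.74, limma adjusted p = 0.0212) and, with all mice, after normexp (0.25, limma adjusted p = 0.0264). Nhlrc1 A_52_P20727 was the only probe of these lists past the thresholds of the methods. Epm2a, which encodes laforin, was not tested because its signal was near background, and Stbd1, a protein that binds glycogen, differed by -0.13 ± 0.36. Its level was 5.10 on B6 015 and 3.55 to 3.71 on the other B6 arrays. The Stbd1 difference ranged from -0.28 to 0.24 without single mice, and its sign turned to 0.24 without B6 015.

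Among the enzymes of synthesis, Gys1, the muscle form of glycogen synthase, was called lower at 1 of its 2 probes. On A_55_P1982883 the levels were -1.05, -1.19, -1.21 and -0.96 in NZO and -0.74, -0.65, -0.52 and -0.40 in B6, so that all NZO mice lay below all B6 mice, by -0.53 ± 0.11 (limma adjusted p = 0.0161). The call was lost without B6 009 (-0.47), without the filter on dim probes (-0.53) and with the fixed slide term (-0.61). After normexp the difference was smaller, at -0.27, and called. The other Gys1 probe, A_55_P2026315, gave 0.18 ± 0.34 (limma adjusted p = 0.768), with NZO 009 at -1.04 and the other NZO mice between -2.64 and -2.15. The phosphoglucomutase that the array names Pgm2 reads the transcript that RefSeq names Pgm1, and had a difference of -0.33 ± 0.10 without overlap (limma adjusted p = 0.065). It was called lower without NZO 003 (-0.39, limma adjusted p = 0.0416) and, with all mice, after normexp (-0.36, 0.0102), after quantile normalization (-0.47, 0.00581) and with the deposited table (-0.52, 0.0132). In contrast, the difference of this Pgm2 probe was only -0.098 with the fixed slide term.

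Of the 11 probes tested for other enzymes of glycogen breakdown and subunits of phosphorylase kinase, 0 were called by limma, beside 14.3% of all probes tested. An unadjusted limma p of at most 0.05 was found at 1 of 11 (9.09%), beside 27.8% of all probes. The brain form of phosphorylase, Pygb, differed by -0.27 ± 0.14. The subunits of phosphorylase kinase gave -0.25 and -0.13 at the probes of Phka2, the regulatory subunit of the liver form, and 0.03 and -0.14 at those of Phkb. Without NZO 007 the values were -0.12 and -0.11 at Phka2 and 0.14 and 0.037 at Phkb. The Phkb probes gave 0.16 and 0.045 without B6 010. The muscle forms gave -0.32 ± 0.14 at Phka1 (limma adjusted p = 0.182) and 0.15 ± 0.20 at Phkg1, and Phka1 was called lower with the deposited table (-0.49, limma adjusted p = 0.045). Without NZO 007 the sign at Phkg1 turned, to -0.037, and Phka1 was -0.22. The muscle form Pygm had levels of 1.58, -1.33, -0.93 and -0.32 in NZO (007, 003, 009 and 011) and 0.03, -0.63, -0.73 and 0.29 in B6. NZO 007, the array with the high muscle markers, was the highest of all, and the other 3 NZO mice did not exceed the 2 upper B6 mice. The difference was 0.01 ± 0.60 with this array and -0.60 ± 0.33 without it (limma adjusted p = 0.282).

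**Figure D4:**
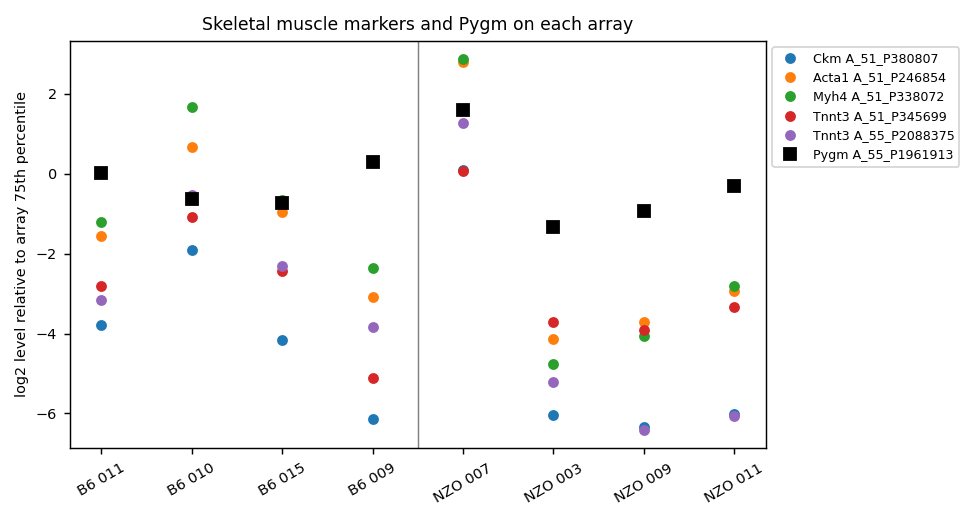
Log2 level, relative to the 75th percentile of the array, of 5 skeletal muscle probes (circles) and of the muscle phosphorylase Pygm (squares) on each array, B6 to the left and NZO to the right of the line. All 5 muscle probes and Pygm, at 1.58, are highest on NZO 007, whereas B6 010, the next array by its summed muscle markers, has Pygm at -0.63.

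Among the phosphatase genes, Ppp1ca, a catalytic subunit of protein phosphatase 1, was called higher with 0.37 ± 0.08 (limma adjusted p = 0.0173). The call was lost without B6 009 (0.38), without B6 010 (0.35), after quantile normalization, without the filter on dim probes (0.37), with the fixed slide term (0.46) and with the deposited table, where the difference was 0.14 (limma adjusted p = 0.435). Its levels lay between 6.83 and 6.91 in NZO and between 6.42 and 6.53 in B6, a narrow spread with a clear gap. The catalytic subunits Ppp1cb and Ppp1cc gave between -0.09 and 0.01 at their 4 tested probes. The probes of the targeting subunits Ppp1r3a, Ppp1r3e and Ppp1r3f and of the inhibitor Ppp1r1a were not well above background on any of the 8 arrays. The probe of Ppp1r3g was well above background on 2 B6 arrays and 0 NZO arrays, and was not tested. Of the 5 probes of the inhibitor Ppp1r2, 4 had negative values, among them A_55_P1960496 with -0.29 ± 0.10 without overlap (limma adjusted p = 0.0874), and A_55_P2103145 gave 0.60 ± 0.20 (limma adjusted p = 0.0892). Neither was called, but A_55_P1960496 was with the deposited table (-0.38, limma adjusted p = 0.0458) and A_55_P2103145 without NZO 007 (0.74, limma adjusted p = 0.0438).

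Of 17 probes tested for other kinases that act on enzymes of glycogen metabolism and for their regulatory subunits, 15 had a positive difference, beside 14317 of 27639 probes across the array. Among the 17, 1 was called (5.88%), beside 14.3% of all probes tested. This was Prkacb A_66_P106418, a catalytic subunit of protein kinase A, the kinase through which glucagon starts glycogen breakdown. Its levels were 0.03, -0.02, -0.09 and -0.03 in NZO and -0.42, -0.47, -0.48 and -0.40 in B6. The strains did not overlap, and the difference was 0.41 ± 0.08 (limma adjusted p = 0.0111). It was called in every fit without a single mouse, but not without the filter on dim probes (0.41), with the fixed slide term (0.45) or with the deposited table, where it was 0.12 (limma adjusted p = 0.566). After normexp it was called with 0.24. The other probe of Prkacb gave 0.22 ± 0.11 (limma adjusted p = 0.25). The values of the list ranged from -0.04 to 0.41 with a median of 0.16, and several of these probes read the same gene. Catalytic subunits were positive at 9 of 10 probes and regulatory subunits of protein kinase A and of AMP-activated protein kinase at 6 of 7. With the deposited table, whose median over all probes was -0.15, 3 of 17 were positive and 14 of 17 lay above that median.

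Of the 10 probes tested for glucose entry, glucose 6-phosphate and hormone input, 1 was called (10%), beside 14.3% of all probes tested. Adra1b, the alpha 1B adrenergic receptor through which catecholamines raise calcium in hepatocytes, was higher at A_55_P2177721, with levels of 3.90 to 4.06 in NZO and 3.34 to 3.59 in B6 and a difference of 0.51 ± 0.09 (limma adjusted p = 0.00835). With the deposited table (0.27) and with the fixed slide term (0.59) it was not called. Its second probe gave 0.45 ± 0.18, also without overlap (limma adjusted p = 0.143). G6pc, the catalytic subunit of glucose-6-phosphatase, which frees glucose for release, differed by -0.28 ± 0.33, and Gcgr, the glucagon receptor, by 0.09 ± 0.09. Neither of these genes was called. The G6pc difference ranged from -0.54 to -0.12 without single mice, and from -0.58 to 0.19 over the alternatives with all mice.

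**Figure D5:**
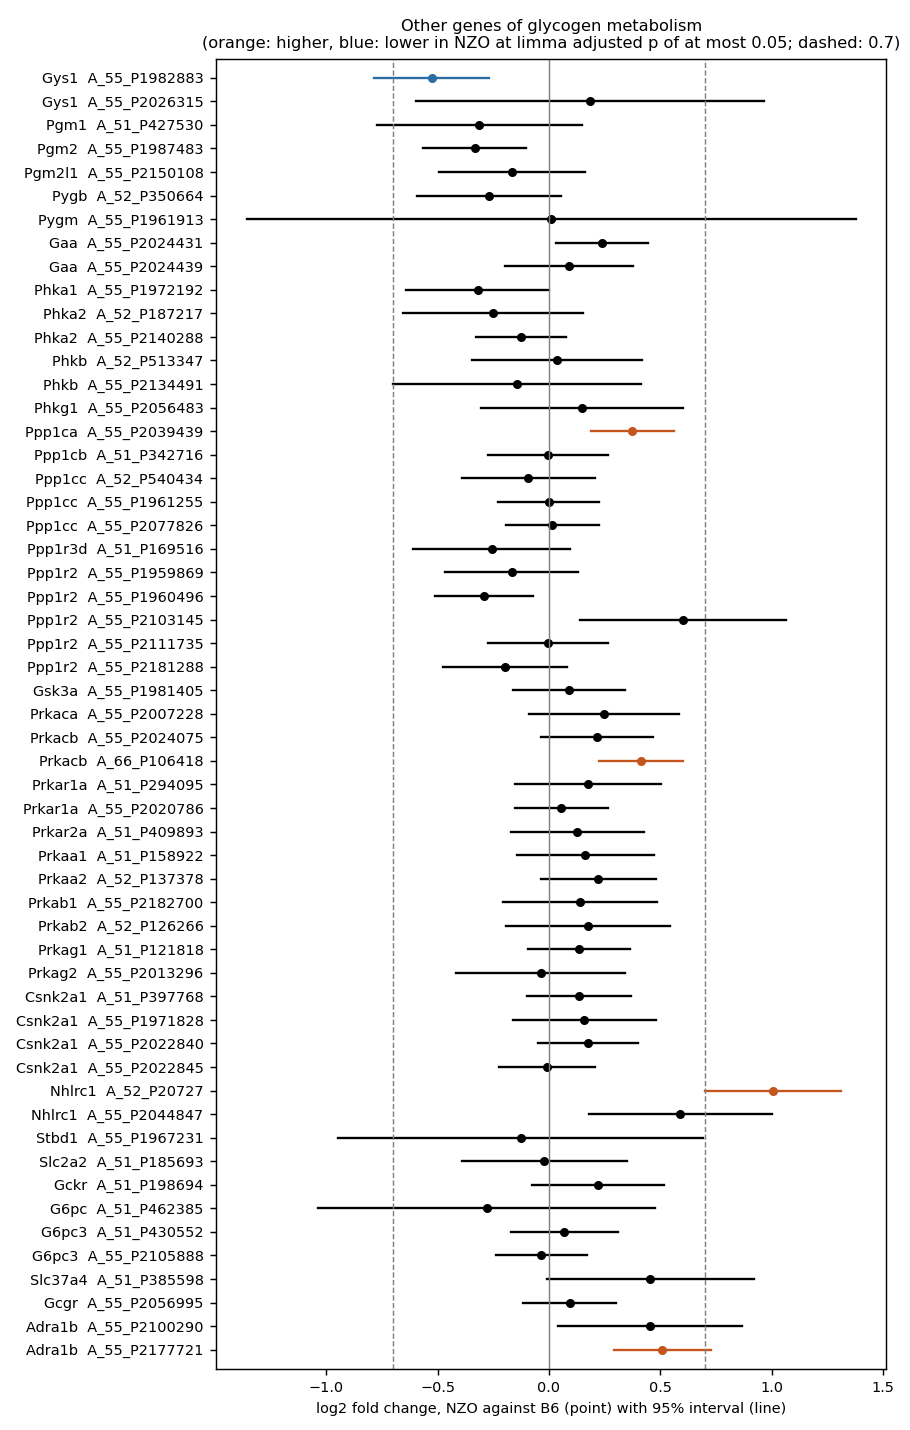
Log2 fold change of NZO against B6 liver (point) with its 95% confidence interval (line) from limma for 55 of the 57 tested probes of the other glycogen genes, ordered by list; dashed lines mark 0.7 in either direction. The 4 probes called higher are Ppp1ca, Prkacb A_66_P106418, Nhlrc1 A_52_P20727 and Adra1b A_55_P2177721, 1 probe of Gys1 is called lower, and Pygm has the widest interval.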

How the data were processed

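The files hold the scanner output of every array and a table of all 8. Per the file headers, intensity values were read from the images with Agilent Feature Extraction 11.0.1.1 (the submitters' processing notes name 9.1), and the processed signal is this intensity after background subtraction, unscaled between arrays. The table that the authors deposited repeated the raw median intensity for 59305 of 59305 spots, to within 0.01 intensity units. Control spots and outliers (96 to 137 on each array) were removed, and spots of a probe were averaged after scaling. limma 3.58.1 in R 4.3.3 with the package data.table (version 1.17.8) compared 4 NZO with 4 B6 arrays over 27639 probes of 60 bases, without a block, after it had been tested on simulated data. Python 3.11.15, pandas 2.3.3, numpy 2.4.6 and matplotlib 3.10.9 made summaries and plots.

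The glycogen genes, lists and markers were chosen with earlier results of these data known. Named were all probes of the 9 genes, of Gys1, Pygb, Pygm, Phka2, Phkb, G6pc and Gcgr, list probes called with a log2 fold change of at least 0.7, and the cell markers. The values of 2 list genes that the rule names are not reported here, and they remain in the counts and medians of their lists. Ppp1ca, Prkacb, Adra1b, Ppp1r2, Phka1, Phkg1, Ppp1cb, Ppp1cc, Stbd1, Epm2a, the array's Pgm2 and the genes at background were named after their values were seen, and the pairs of probes were likewise chosen after seeing the data. Of the 15 probes, 14 were matched to RefSeq by accession and 1 by symbol. Positions are those of the files (mm9). No genome of this build was used, and exons and strain variants under the probes were not analysed here. The arrays came from 5 slides and 2 scan days, of which 1 slide and both days held both strains. Precision depends on the 4 arrays a strain and on the spread of each probe within the strains. Alternatives were other background corrections and scalings, filters on dim probes, the brightest probe of each gene, slide, scan day or mouse number as a term, the methods' t-test (with Welch correction) and leaving out each mouse.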

Additional observations from a re-analysis of the deposited data

Results flagged for a closer look

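Among 58 groups of 4 arrays, from 29 probes of the glycogen genes and lists, 2 held a mouse far from the others of its strain, where chance alone marks about 1 group in 20. B6 010 had a level of 2.88 at the Gsk3b probe A_55_P1981415, below the other B6 mice, which started at 3.07. NZO 007 had -2.97 at the Phkb probe A_55_P2134491, below the next NZO mouse at -2.31. Not every probe named above was among the 29. Stbd1, which was not, had 5.10 on B6 015 and 3.55 to 3.71 on the other B6 arrays.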

How the results depend on the processing

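No glycogen probe was called higher under any alternative. With the deposited table as given, 2 were called lower, Gbe1 A_55_P2129222 (-0.80) and Ugp2 A_55_P2021049 (-0.39). The Gbe1 probe alone gave 1 with the slide as a random block, 1 with the scan day as a term and 1 at the thresholds of the methods, and leaving out each mouse gave 0 to 1 (1 without B6 011). Probes called higher and lower across the array were 1887 and 2053, against 989 and 3355 with the deposited table, 504 and 984 with a fixed slide term, and 1314 and 1192 by the methods' t-test. In the deposited table the median of all probes shifted by -0.17 and 22.8% of the calls were higher, against 47.9% here, 33.9% with the fixed slide term, 52.4% by the methods' t-test and 55.3% with normexp. Only the mouse numbers 009 and 011 occur in both strains and their deviations did not move together (correlations of -0.26 and -0.004), so that the mice share only a number. With this number as a replicate block, 72 probes were higher and 134 lower (35.0% higher), 0 glycogen probes were called, Gbe1 A_55_P2129222 was -0.33 (limma adjusted p = 0.561), and 0 of the other list probes were higher or lower.

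Of the other list probes, 4 were called higher and 1 lower. The higher count was 1 with the deposited table, 2 without the filter on dim probes, 0 with the fixed slide term, 5 with normexp, 1 at the thresholds of the methods and 3 to 5 without single mice. The lower count was 2 with normexp, 2 with quantile normalization, 4 with the deposited table, 0 without the filter, 0 with the fixed slide term, 0 at the thresholds of the methods, and 0 to 2 without single mice (2 without NZO 003, 0 without B6 009).

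Signs changed in 7 of 15 glycogen probes, none of them called in either case. With the fixed slide term, Ugp2 A_51_P475580 was 0.028, Gbe1 A_51_P273684 0.015 and Gsk3b A_51_P514412 -0.017. With the deposited table, Gys2 A_55_P1992555 was -0.12, Gsk3b A_51_P514412 -0.15, Gsk3b A_55_P1981415 -0.14 and Ppp1r3b -0.19. With the scan day as a term, Gsk3b A_51_P514412 was -0.040 and Ppp1r3b -0.042. Ppp1r3b was -0.036 with normexp and -0.10 with quantile normalization, and Ppp1r3c was 0.57 with the mouse number as a block. Without single mice, Gsk3b A_51_P514412 ranged from -0.081 to 0.11, Ppp1r3b from -0.12 to 0.11 and Ppp1r3c from -0.42 to 0.086. The cause was not tested.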
